A study of Mus musculus with 10 samples.

Results

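Pyroptosis is a lytic cell death in which a gasdermin protein is cut and its freed amino-terminal part forms pores in the plasma membrane. Inflammasome sensors detect microbial or damage signals and, through the adaptor ASC (the product of Pycard), recruit caspase-1, which cuts gasdermin D and matures interleukin-1 beta and interleukin-18, while mouse caspase-11 (the product of Casp4) binds cytosolic lipopolysaccharide and also cuts gasdermin D. In the mouse intestine the Gsdmc copies are expressed in the epithelium and are known to be induced by type 2 cytokines, and Nlrp6 is an epithelial sensor known for its role in goblet cells and in the response to microbes.

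The transcripts described here are 9 of the 19456 genes listed in the deposited tables, taken by symbol: the gasdermins Gsdmc2, Gsdmc3, Gsdmc4 and Gsdmd, the caspases Casp1 and Casp4, the sensors Nlrp6 and Aim2, and the adaptor Pycard. All 9 were listed in all 10 libraries and all passed the filter on low counts. Poly-A RNA of mouse intestinal tissue was sequenced from 4 groups of strain C57BL/6: ITGB6-overexpressing transgenic mice given 2.5% DSS by mouth (TG DSS, 2 libraries), wild-type mice given the same (WT DSS, 2 libraries), untreated transgenic mice (TG untreated, 3 libraries) and untreated wild-type mice (WT untreated, 3 libraries). DSS, dextran sulfate sodium, injures the colonic epithelium and was used by the study to model intestinal fibrosis, and ITGB6 encodes the beta subunit of the integrin alpha-v beta-6. The labels do not give the promoter that drives the transgene, the length of treatment, the part of the intestine, the age or sex of the mice, or whether each library is a separate animal, so the p-values measure the spread between these libraries only.

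The human ITGB6 entry held 37587 to 41860 expected counts in TG DSS libraries, 12 to 21 in WT DSS, 60911 to 65245 in TG untreated and 2 in each WT untreated library. Depth was 15393859 to 18284704 expected counts per library. Of the markers of tissue of origin, the distal colon gene Hoxb13 was found at 145 to 229 CPM in the 10 libraries, CPM being the count relative to the library size that TMM scaling gives, the small intestine gene Gata4 at 0.357 to 1.91 CPM, and the 7 epithelial markers together at 14108 to 19760 CPM. The 7 small intestine markers together were at 63.6 to 158 CPM, most of it from genes other than Gata4. The 7 colonocyte markers together were at 4009 to 11621 CPM. The female-specific Xist transcript was at 307 to 739 CPM in the 4 DSS libraries and at 0 to 0.416 CPM in the 6 untreated ones, and the Y-linked Kdm5d was at 0 in the 4 DSS libraries and at 26.6 to 44.2 CPM in the untreated ones. DSS treatment and sex therefore cannot be told apart in any DSS comparison below, and in bulk tissue fewer cells of a type and less RNA per cell cannot be told apart either.

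Gsdmc2, Gsdmc3 and Gsdmc4 lie side by side on the minus strand of chromosome 15, at chr15:63824328-63845193, chr15:63857605-63878579 and chr15:63891140-63912319 of GRCm38, with Gsdmc itself next to them at chr15:63775971-63808739. Their likeness decides how far their reads can be told apart. In the GENCODE M21 transcripts that match the RefSeq accessions named in the deposited tables, the 1440-base coding sequences of Gsdmc2 and Gsdmc3 were 97.1% identical, with 42 differing bases. Gsdmc4 was 93.5% identical to Gsdmc2 and 93.4% identical to Gsdmc3, and Gsdmc was 86.1 to 86.4% identical to each of the 3. Of all 50-base windows of a transcript, 48.5% in Gsdmc2, 41.8% in Gsdmc3, 39.0% in Gsdmc4 and 16.4% in Gsdmc also occurred, letter for letter, in a transcript of another gene of the cluster.

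**Figure D1:**
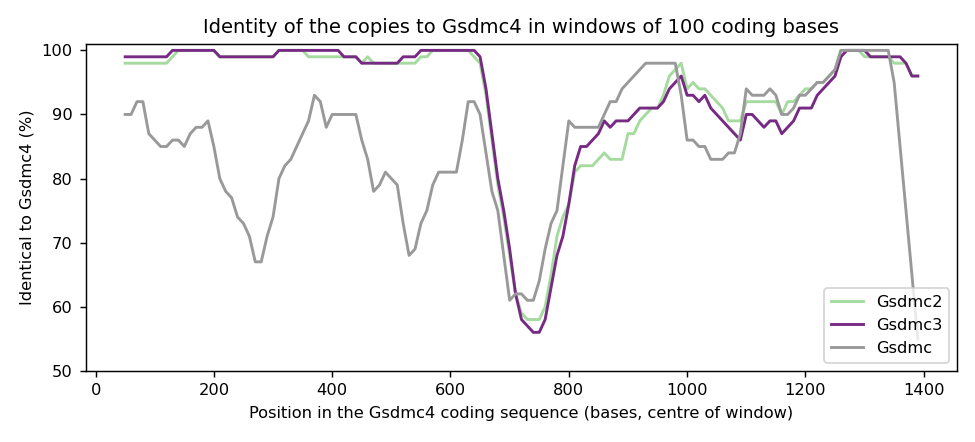
Identity of Gsdmc2, Gsdmc3 and Gsdmc to Gsdmc4 (percent, vertical axis) in windows of 100 coding bases along the Gsdmc4 coding sequence (bases, horizontal axis), with gaps counted as not identical. Gsdmc2 and Gsdmc3 are at least 98.0% identical to Gsdmc4 in every window centred up to base 600, and reach their lowest values, 58.0% and 56.0%, near bases 730 to 740.

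The stretch that sets Gsdmc4 apart lies in the middle of the coding sequence. The 36 coding bases within 1 exon at which most positions differ among the 3 copies, 22 of 36, are shown because reads over them separate Gsdmc4 from the other copies. They lie at chr15:63828169-63828204 in Gsdmc2, chr15:63861588-63861623 in Gsdmc3 and chr15:63895163-63895198 in Gsdmc4 (GRCm38, minus strand, 5′ to 3′). Capitals mark the positions that are not the same in all 3.
Gsdmc2: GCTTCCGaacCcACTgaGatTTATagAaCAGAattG
Gsdmc3: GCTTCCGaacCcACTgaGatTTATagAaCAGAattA
Gsdmc4: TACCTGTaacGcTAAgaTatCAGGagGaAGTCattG

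Gsdmc2 and Gsdmc3 are nearly the same over that stretch. Among stretches within 1 exon and aligned without gaps, the 60 coding bases with most differing positions, 15 of 60, lie further 3′. They are shown because they separate all 3 copies from each other. They lie at chr15:63826868-63826927 in Gsdmc2, chr15:63860298-63860357 in Gsdmc3 and chr15:63893815-63893874 in Gsdmc4, on the same strand and with the same use of capitals.
Gsdmc2: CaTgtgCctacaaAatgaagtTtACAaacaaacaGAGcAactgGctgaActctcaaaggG
Gsdmc3: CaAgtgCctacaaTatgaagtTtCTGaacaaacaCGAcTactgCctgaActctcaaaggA
Gsdmc4: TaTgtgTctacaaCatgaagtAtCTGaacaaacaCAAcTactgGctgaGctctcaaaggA

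At the other extreme, 146 coding bases in a row are identical in the 3 copies, so a read lying wholly inside them names no copy. The first 60 of them, at chr15:63835001-63835060 in Gsdmc2, are shown in lower case throughout, since no position differs.
Gsdmc2, Gsdmc3 and Gsdmc4: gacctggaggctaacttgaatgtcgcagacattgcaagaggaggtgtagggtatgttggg

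The deposited counts of the copies were fractional. Expected counts of Gsdmc2, Gsdmc3 and Gsdmc4 were whole numbers in 0% of libraries, within a tolerance of 0.005, whereas those of Gsdmd, Casp1, Casp4 and Nlrp6 were whole in 100% of libraries, those of Pycard in 90.0% and those of Aim2 in 10%. Reads of the 3 copies were therefore divided between genes by an estimate, and the value of any 1 copy is less certain than their sum, which is given beside each comparison. Most counts of Aim2 were not whole either, so its values, too, rest in part on an estimate.

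Per length, the Gsdmc copies included the most abundant of the 9 transcripts. Gsdmc4, whose protein is a pore-forming gasdermin like those of the other copies, was at 442 to 1268 FPKM (fragments per kilobase of transcript, scaled to depth) over the 10 libraries, and Gsdmc2 at 259 to 905 FPKM. They ranked first and second of the 9 in every library. Gsdmc3 was at 70.7 to 206 FPKM, Gsdmd at 69.1 to 147 FPKM, Casp1 at 51.3 to 137 FPKM, Nlrp6 at 72.1 to 103 FPKM and Pycard at 73.4 to 129 FPKM. Casp4, at 8.99 to 32.7 FPKM, and Aim2, at 9.31 to 21.2 FPKM, were the lowest in every library. The 3 copies together held 0.186 to 0.509% of all counts in a library, and Gsdmc4 was between the 23rd and the 94th most counted gene. The partner Gsdmc was at 3.99 to 9.69 FPKM, so low beside the copies that adding it and the pseudogenes Gsdmcl-ps and Gsdmcl2 to the sum changed no call.

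**Figure D2:**
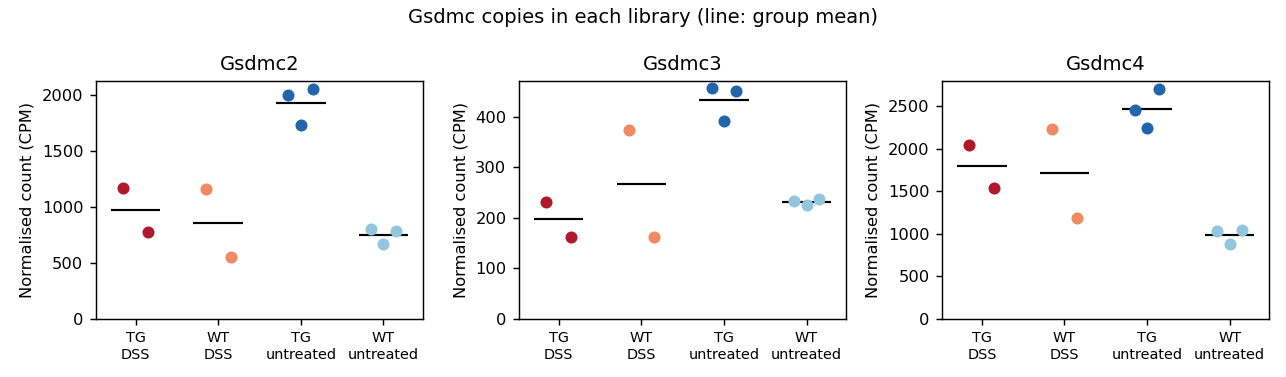
Normalised counts (CPM, vertical axis, from 0) of Gsdmc2, Gsdmc3 and Gsdmc4 in each library, by group (horizontal axis). Each point is a library and each line a group mean. For each copy the 3 TG untreated libraries lie above all others, between 1734 and 2053 CPM for Gsdmc2, while the pairs of DSS libraries are spread widely.

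The first comparison asks what the transgene changed without DSS. The Gsdmc copies together were 2.45-fold higher in TG than in WT untreated tissue, and the transcripts of the caspases, the sensors, the adaptor and Gsdmd did not pass the test. Gsdmc2 was at 1999, 1734 and 2053 CPM in TG untreated libraries and at 802, 670.4 and 789 CPM in WT untreated libraries. Gsdmc4 was at 2457, 2244 and 2703 CPM in TG untreated libraries and at 1037, 882 and 1044 CPM in WT untreated libraries. Gsdmc3 was at 456, 392 and 450.1 CPM in TG untreated libraries and at 233, 226 and 237 CPM in WT untreated libraries. For each copy every TG library lay above every WT library, by a gap wider than the spread within either group. Separation of groups this small can often arise by chance, and the share of all tested genes that separated is given for no comparison.

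Gsdmc2 rose by a log2 fold change of 1.36 (SE 0.25, 2.56-fold) with an adjusted p of 0.0205 in edgeR's quasi-likelihood test over all 14072 genes. Gsdmc4 rose by 1.32 (SE 0.21, 2.50-fold, adjusted p 0.0142). Gsdmc3 had a log2 fold change of 0.90 (SE 0.25) and did not pass, with an adjusted p of 0.0823. The sum of the copies, which does not depend on how reads were divided among them, averaged 4830 ± 424 CPM in TG untreated and 1973 ± 169 CPM in WT untreated libraries (SD, n = 3 each). It rose 2.45-fold (log2 fold change 1.29, SE 0.23, adjusted p 0.0181). The calls of Gsdmc2, Gsdmc4 and the sum ended when any 1 of the 3 WT untreated libraries was left out, at adjusted p of 0.0743, 0.101 and 0.0903 for Gsdmc2, 0.0604 to 0.0802 for Gsdmc4 and 0.0716 to 0.0963 for the sum, while the fold changes of the sum stayed between 1.2 and 1.34 in log2 over all 10 such fits. Those of Gsdmc2 and the sum also ended without TG untreated 2, at 0.0565 and 0.0533, or without TG untreated 3, at 0.0571 and 0.0552. Gsdmc3 passed without WT DSS 1, at an adjusted p of 0.0106, without WT DSS 2, at 0.0104, with only the untreated libraries in the fit, at 0.00671, and in DESeq2, at 0.0109.

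Of the 9 members, 2 were called in this comparison and both were higher, beside 3.7% of all tested genes called in either direction and 2.26% called higher. The median log2 fold change of the 9 was 0.21, against -0.02 over all tested genes. Among the other 6, Pycard was at 218, 184 and 174 CPM in TG untreated and 151, 169 and 155 CPM in WT untreated libraries, each TG library being the higher (log2 fold change 0.28, adjusted p 0.194). Gsdmd, the substrate shared by caspase-1 and caspase-11, was at 129, 129 and 125 CPM in TG untreated and 143, 160.4 and 144 CPM in WT untreated libraries. Its TG libraries were all below its WT libraries, but by a log2 fold change of only -0.22 that did not pass (adjusted p 0.265).

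Aim2, a sensor of cytosolic DNA, was at 24.5, 42.2 and 40.3 CPM in TG untreated and 49.5, 48.2 and 51.2 CPM in WT untreated libraries (log2 fold change -0.48, adjusted p 0.196). Casp1 was at 80.7, 165 and 145 CPM in TG untreated and 149, 166 and 169 CPM in WT untreated libraries (adjusted p 0.503). In both genes 1 library, TG untreated 1, lay far below the other TG libraries. The same library was the lowest of the 6 untreated ones in Casp4, at 13.3 CPM, and in leukocyte markers: the 5 pan-leukocyte markers, all listed and none at 0 in any library, summed to 77.7, 196 and 280 CPM in TG untreated 1, 2 and 3, and to 232, 416 and 217 CPM in WT untreated libraries. The part of leukocytes in these values was not tested. Nlrp6 (log2 fold change 0.21, adjusted p 0.382) and Casp4 (0.09, adjusted p 0.879) overlapped between the genotypes.

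**Figure D3:**
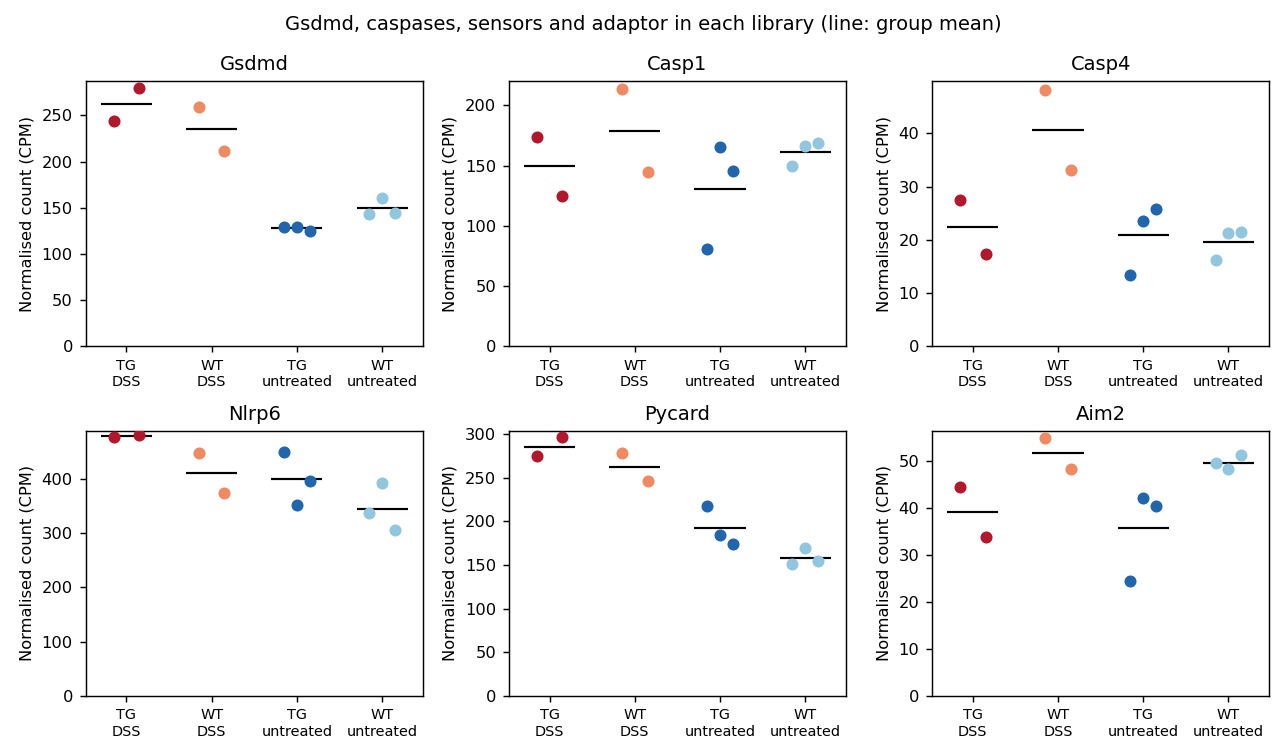
Normalised counts (CPM, vertical axis, from 0) of Gsdmd, Casp1, Casp4, Nlrp6, Pycard and Aim2 in each library, by group (horizontal axis). Each point is a library and each line a group mean. Gsdmd and Pycard are higher in all 4 DSS libraries than in all 6 untreated ones, and Casp4 is highest in the 2 WT DSS libraries.

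With DSS in WT tissue, Gsdmd, Pycard, Casp4 and the copy Gsdmc4 rose. Gsdmd was at 259 and 212 CPM in WT DSS libraries and at 143, 160.4 and 144 CPM in WT untreated libraries. It averaged 236 ± 33.4 CPM in WT DSS (SD, n = 2) and 149 ± 9.50 CPM in WT untreated libraries (SD, n = 3), a 1.58-fold rise (log2 fold change 0.66, SE 0.12, adjusted p 0.00526). Pycard was at 278 and 246 CPM in WT DSS libraries and at 151, 169 and 155 CPM in WT untreated libraries, a 1.65-fold rise (log2 fold change 0.73, SE 0.12, adjusted p 0.00406). For both genes the groups were well apart, and both stayed called with any 1 of the 10 libraries left out.

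Casp4 was at 48.1 and 33.2 CPM in WT DSS libraries and at 16.2, 21.3 and 21.5 CPM in WT untreated libraries, a 2.07-fold rise (log2 fold change 1.05, SE 0.29, adjusted p 0.031). Gsdmc4 was at 2233 and 1189 CPM in WT DSS libraries, against the 882 to 1044 CPM in WT untreated ones, a 1.73-fold rise (log2 fold change 0.79, SE 0.23, adjusted p 0.0389). Both rest on few libraries. Without WT DSS 1, the higher of the pair, the log2 fold change of Gsdmc4 was 0.27 (adjusted p 0.348) and that of Casp4 was 0.76 (adjusted p 0.168). Without WT DSS 2 the adjusted p of Casp4 was 0.0561. Leaving out WT untreated 1, 2 or 3 gave adjusted p of 0.112, 0.0764 and 0.0727 for Casp4 and of 0.0922, 0.129 and 0.0876 for Gsdmc4. The call of Gsdmc4 also ended without TG untreated 2 or 3, at 0.0518 and 0.0528, and with only the WT libraries in the fit, at 0.0591.

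The 4 members called were all higher, beside 19.8% of all tested genes called in either direction and 10.2% called higher. The median log2 fold change of the 9 was 0.25, against 0.00 over all tested genes. Gsdmc2 was at 1160 and 556 CPM in WT DSS libraries, which straddled the WT untreated libraries, and Gsdmc3, at 373 and 161 CPM, did the same (adjusted p 0.680 and 0.657). The sum of the copies averaged 2836 ± 1316 CPM in WT DSS (SD, n = 2) and 1973 ± 169 CPM in WT untreated libraries (SD, n = 3), with an adjusted p of 0.174, or 0.0202 without WT DSS 2, the lower of the pair. Casp1, at 214 and 145 CPM in WT DSS libraries, Nlrp6, at 448 and 374 CPM, and Aim2, at 54.9 and 48.4 CPM, each overlapped their WT untreated values (adjusted p 0.749, 0.263 and 0.882).

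With DSS in TG tissue, Gsdmd and Pycard again rose, and the Gsdmc copies lay below their untreated level but did not pass the test. Gsdmd was at 244 and 279.6 CPM in TG DSS libraries and at 129, 129 and 125 CPM in TG untreated libraries, a 2.05-fold rise (log2 fold change 1.03, SE 0.12, adjusted p 0.00093) that stayed called with any 1 library left out. Pycard was at 274 and 297 CPM in TG DSS libraries and at 218, 184 and 174 CPM in TG untreated libraries, a 1.49-fold rise (log2 fold change 0.57, SE 0.12, adjusted p 0.0235). The call of Pycard ended without either TG DSS library, at 0.1001 and 0.214, without TG untreated 2 or 3, at 0.0581 and 0.0853, and with only the TG libraries in the fit, at 0.112.

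Gsdmc2 was at 1170.2 and 777 CPM in TG DSS libraries, against 1734 to 2053 CPM in TG untreated ones. Gsdmc3 was at 232 and 163 CPM in TG DSS libraries, against 392 to 456 CPM, and Gsdmc4 at 2040.1 and 1542 CPM, against 2244 to 2703 CPM in TG untreated ones. No TG DSS library reached the lowest TG untreated library for any copy. Such a separation can arise by chance in groups this small, and the copies share divided reads. None passed the test: the log2 fold changes were -0.99 for Gsdmc2 (SE 0.28, adjusted p 0.0735), -1.14 for Gsdmc3 (SE 0.29, adjusted p 0.0512) and -0.46 for Gsdmc4 (SE 0.24, adjusted p 0.321). The sum averaged 2961 ± 679 CPM in TG DSS (SD, n = 2) and 4830 ± 424 CPM in TG untreated libraries (SD, n = 3), a log2 fold change of -0.71 (adjusted p 0.155). Gsdmc2 and Gsdmc3 were called lower by DESeq2, at 0.00736 and 0.00209. Gsdmc3 was also called lower with total count scaling (0.0373), with no low-count filter (0.0355), with only the TG libraries in the fit (0.029), without TG untreated 1 (0.0458) and in the FPKM fits with a filter (0.0371 and 0.0382). Without WT DSS 1 or WT DSS 2, libraries that enter only the shared estimate of spread, Gsdmc2 (0.0144 and 0.0142), Gsdmc3 (0.00377 and 0.00394) and the sum (0.0328 and 0.0329) were called lower.

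The 2 members called were both higher, beside 5.48% of all tested genes called in either direction and 3.33% called higher. The median log2 fold change of the 9 was 0.13, against 0.01 over all tested genes. Nlrp6 was at 478 and 481 CPM in TG DSS libraries, above the 449.8, 352 and 397 CPM of the TG untreated ones (log2 fold change 0.26, adjusted p 0.358). Casp1 at 174 and 125 CPM, Casp4 at 27.4 and 17.4 CPM and Aim2 at 44.5 and 33.7 CPM in TG DSS libraries overlapped their TG untreated values (adjusted p 0.765, 0.896 and 0.796).

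The summed neutrophil markers (7 genes) and macrophage and monocyte markers (7 genes) were higher in every DSS library than in every untreated one. The neutrophil markers summed to 185 to 253 CPM in TG DSS and 138 to 145 CPM in WT DSS libraries, against 28.9 to 39.3 CPM in TG untreated and 61.7 to 78.2 CPM in WT untreated ones. S100a9, one of their defining genes, was at 0 in 1 TG untreated and 2 WT untreated libraries. The macrophage and monocyte markers summed to 107 to 123 CPM in TG DSS and 144 to 160.1 CPM in WT DSS libraries, against 55.6 to 62.1 CPM in TG untreated and 40.3 to 50.3 CPM in WT untreated ones. The pan-leukocyte markers summed to 86.7 to 92.9 CPM in TG DSS and 95.0 to 110 CPM in WT DSS libraries, against 77.7 to 280 CPM in TG untreated and 217 to 416 CPM in WT untreated ones. The part of these cells in the changes of Gsdmd, Pycard and Casp4 was not tested. The sums of the 7 epithelial markers overlapped between the 4 groups, but those of other lists did not. For TG against WT untreated, 7 of the 7 epithelial markers had a positive log2 fold change (median 0.07, against -0.02 over all tested genes). Of these 7, 1 was called higher, beside 2.26% of all tested genes. For TG against WT after DSS, 6 of the 7 were positive and 0 were called. The 7 colonocyte markers summed to 7949 to 10111 CPM in TG DSS and 4009 to 6315 CPM in WT DSS libraries, against 5547 to 9191 CPM in TG untreated and 9207 to 11621 CPM in WT untreated ones. Of them 4 fell with DSS in WT, and 2, Car4 and Hoxd13, were lower in TG than in WT untreated tissue, while Car4 rose with DSS in TG. Of the 6 T cell markers tested, 5 fell with DSS in WT and 0 passed in TG. Of all 14072 tested genes, 1354 were called lower with DSS in WT, and 303 lower and 468 higher with DSS in TG. For TG against WT untreated, 202 of all tested genes were called lower and 318 higher. The 5 fibroblast markers summed to 17.6 to 19.2 CPM in TG DSS and 17.95 to 20.2 CPM in WT DSS libraries, against 28.4 to 91.3 CPM in TG untreated and 16.2 to 27.7 CPM in WT untreated ones, and 2 of them, Col1a1 and Col3a1, were higher in TG than in WT untreated tissue and fell with DSS in TG. The part of these cells in the changes of the Gsdmc copies was not tested.

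After DSS the genotypes did not differ in any of the 9 by the test. The count called was 0 of 9 by edgeR, by DESeq2 and in the FPKM fits, beside 0.185% of all tested genes called in either direction. An unadjusted p under 0.05 in edgeR was found for 1 of the 9 members, beside 1578 of all 14072 tested genes. That member was Casp4, at 27.4 and 17.4 CPM in TG DSS and 48.1 and 33.2 CPM in WT DSS libraries (log2 fold change -0.86, SE 0.32, p 0.0237, adjusted p 0.346 in edgeR). Both TG DSS libraries were below both WT DSS libraries, and 1 of them was above the range of the 6 untreated libraries, 13.3 to 25.7 CPM. The TG DSS libraries were also both below the WT DSS ones in Aim2 (log2 fold change -0.40, adjusted p 0.574) and both above them in Nlrp6 (0.22, adjusted p 0.649). All the other members overlapped between the genotypes. Groups this small can often separate by chance, and the share of all tested genes that did so is not given. No difference between the genotypes is therefore drawn from these separations. The sum of the Gsdmc copies, at 3442 and 2481 CPM in TG DSS and 3767 and 1906 CPM in WT DSS libraries, overlapped fully (log2 fold change 0.06, adjusted p 0.951), with a wider spread within each genotype than between them.

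Whether the response to DSS differed by genotype was tested as an interaction. For each copy the estimate was negative, at -1.17 for Gsdmc2 (SE 0.39, p 0.0125), -1.34 for Gsdmc3 (SE 0.40, p 0.00714) and -1.26 for Gsdmc4 (SE 0.34, p 0.00369), a negative value being a lower TG-to-WT ratio after DSS than without it. After adjustment in edgeR these were 0.249, 0.191 and 0.141, and that of the sum was 0.178 (log2 -1.23). DESeq2 called Gsdmc3 and Gsdmc4 at adjusted p of 0.0335 and 0.0127 and the sum at 0.0256. Without WT DSS 2, edgeR called Gsdmc2 (0.0403), Gsdmc3 (0.0094), Gsdmc4 (0.0161) and the sum (0.0216). Of the 9 members 0 passed in edgeR, beside 0.846% of all tested genes called. An unadjusted p under 0.05 in edgeR was found for 5 of the 9, beside 1703 of all 14072 tested genes. The 5 include the Gsdmc copies, whose reads were divided by an estimate. The other members with an unadjusted p under 0.05 were Gsdmd (0.38, p 0.0477) and Casp4 (-0.95, p 0.0471). The comparisons share libraries, since the untreated TG libraries enter both the genotype and the DSS comparison.

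**Figure D4:**
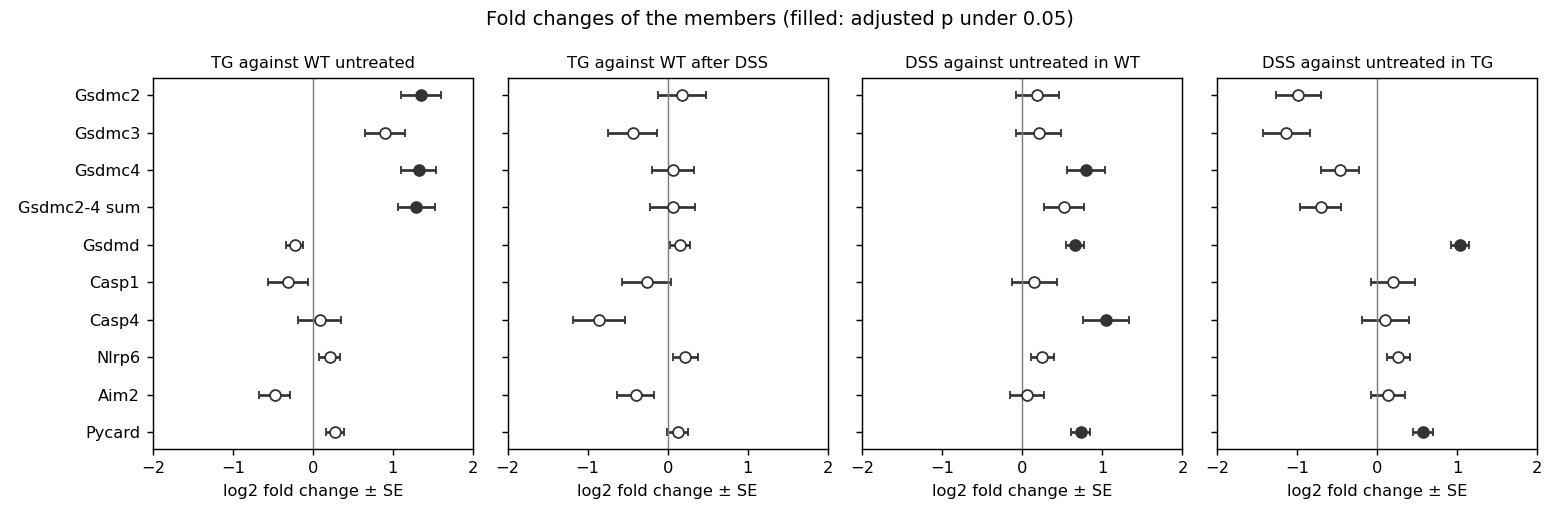
Log2 fold change with its standard error (horizontal axis) of the 9 members and of the Gsdmc2-4 sum (vertical axis) in 4 comparisons, 1 panel each. Filled points have an adjusted p under 0.05: Gsdmc2, Gsdmc4 and the sum for TG against WT untreated, 4 members with DSS in WT, Gsdmd and Pycard with DSS in TG, and no member for TG against WT after DSS.

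The division of reads among the copies also changed with DSS, a measure that was examined after the values had been seen. Gsdmc4 took 59.3 and 62.1% of the counts of the 3 copies in TG DSS and 59.3 and 62.4% in WT DSS libraries. It took 50.02, 51.3 and 51.9% in TG untreated and 50.05, 49.6 and 50.4% in WT untreated libraries. Every DSS library was thus above every untreated one, whichever the genotype and whatever the summed level. The difference was 10.2 percentage points over all 10 libraries (two-sided exact permutation test, p 0.00476, the smallest that 210 regroupings allow, 0.0357 after Benjamini-Hochberg adjustment over 15 tests of shares). Within TG and within WT libraries it was 9.61 and 10.8 points, each with an exact p of 0.1, the smallest possible with 2 against 3 libraries.

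Gsdmc2 held a smaller share with DSS (-7.75 points over all libraries, exact permutation p 0.00476, adjusted 0.0357), at 34.0 and 31.3% in TG DSS and 30.8 and 29.1% in WT DSS libraries, against 39.4 to 40.7% in TG untreated and 37.7 to 38.7% in WT untreated ones. As the shares of the copies make up a whole, this fall and the rise of Gsdmc4 are not separate results. The tests of shares are thus not independent of each other. Gsdmc3 took 6.73 and 6.55% in TG DSS and 9.91 and 8.46% in WT DSS libraries, against 8.65 to 9.28% in TG untreated and 11.2 to 12.7% in WT untreated ones, a difference that did not pass (exact permutation p 0.0571, adjusted 0.125). Between TG and WT untreated libraries the Gsdmc4 share differed by 1.07 points (exact permutation p 0.3). The Gsdmc2 share was higher by 1.76 points in TG and the Gsdmc3 share differed by -2.83 points, and for both the genotypes did not overlap (exact permutation p 0.1 each, the smallest that 3 against 3 libraries allow, adjusted 0.125). Over all libraries the Gsdmc3 share differed by -2.71 points between TG and WT (exact permutation p 0.0317, adjusted 0.125). Since Gsdmc4 differs from the other copies at far more positions than they differ from each other, its share rests on more separating sequence than the split of Gsdmc2 and Gsdmc3.

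**Figure D5:**
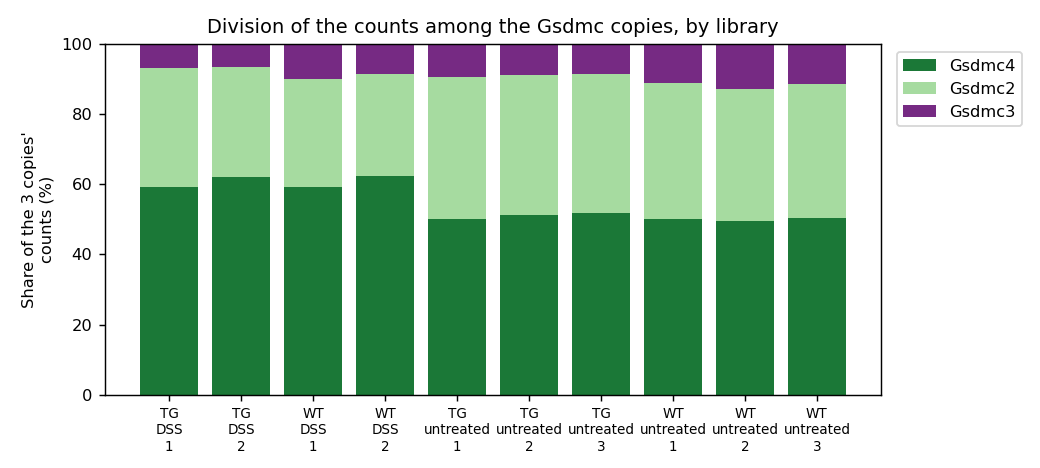
Share of the counts of the 3 copies held by Gsdmc4, Gsdmc2 and Gsdmc3 (percent, vertical axis, from 0) in each of the 10 libraries (horizontal axis). Gsdmc4 holds 59.3 to 62.4% in the 4 DSS libraries and 49.6 to 51.9% in the 6 untreated ones.

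Promoters of 6 of the 9 members are in the RefSeq promoter table of GRCm38.p6, which gives 250 bases before and 50 after each annotated start: Aim2, Casp1, Casp4, Gsdmc3, Nlrp6 and Pycard. They were searched on both strands for the interferon regulatory factor core AANNGAAA, the STAT core TTCNNNGAA, the TATA letters TATAAA and the NF-kB consensus, which occur in 23.9, 8.30, 13.6 and 5.80% of the 32851 promoters in the table. Aim2, Casp1, Gsdmc3 and Nlrp6 held none of the 4, and Pycard held 1 interferon regulatory factor core. Casp4 held 2 such cores and 3 matches of the NF-kB consensus, 2 of which overlap, at positions -93, -92 and -39 from the upstream of its 2 annotated starts. The 200 bases before that start, chr9:5308649-5308848 (GRCm38.p6, plus strand, 5′ to 3′), are shown because Casp4 rose with DSS in WT tissue. Capitals mark 1 interferon regulatory factor core and then the 2 places that match the NF-kB consensus, the first holding the overlapping pair.
Casp4: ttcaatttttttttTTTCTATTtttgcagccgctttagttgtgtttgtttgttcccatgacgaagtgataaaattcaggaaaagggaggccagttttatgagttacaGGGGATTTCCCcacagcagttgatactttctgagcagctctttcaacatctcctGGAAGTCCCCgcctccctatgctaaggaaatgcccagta

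The partners of these genes were examined in lists chosen by function. Of 10 substrates, release factors and restrainers of the inflammasome, 4 rose with DSS in TG tissue and 6 in WT tissue, with none lower, beside 3.33% of all tested genes called higher in TG and 10.2% in WT. Il1b, the precursor of interleukin-1 beta, was at 14.5 and 9.83 CPM in TG DSS libraries and 20.7 and 14.8 CPM in WT DSS libraries. It was at 0.417 to 1.06 CPM in TG untreated and 0.469 to 0.952 CPM in WT untreated ones. Its log2 fold change was 3.87 in TG (adjusted p 0.000324) and 4.74 in WT (adjusted p 7.23e-05). All 4 DSS libraries were thus far above every untreated library.

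Il18, the precursor of interleukin-18, was at 119 and 103 CPM in TG DSS and 144 and 104 CPM in WT DSS libraries, against 29.7 to 42.8 CPM in TG untreated and 35.6 to 46.7 CPM in WT untreated ones. It rose by log2 fold changes of 1.61 in TG (adjusted p 0.0012) and 1.55 in WT (adjusted p 0.000713). Il18bp, which binds and blocks interleukin-18, rose in both, by 1.85 in TG and 2.75 in WT. Trim31, a ubiquitin ligase known to restrain NLRP3, rose in WT (0.69, adjusted p 0.00893). Il1rn, the interleukin-1 receptor antagonist, rose with DSS in TG (1.42, adjusted p 0.00224) and in WT (0.80, adjusted p 0.0161), and was lower in TG than in WT untreated tissue (log2 fold change -0.80, adjusted p 0.0344), the 1 gene of this list called in that comparison. Its call between the untreated genotypes ended in at least 1 fit with 1 library left out.

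Of 12 other sensors and their cofactors, 2 rose with DSS in each genotype, beside 3.33% of all tested genes called higher in TG and 10.2% in WT. With 1 library left out the count in TG was 0 without TG DSS 1 or 2, TG untreated 2 or 3, or WT untreated 1 or 2, and 1 without WT DSS 1 or 2 or WT untreated 3. That in WT was 1 when WT untreated 1, 2 or 3 was left out and 5 without WT DSS 1. Between the genotypes 0 of 12 passed in edgeR. Their log2 fold change was negative for 12 of 12 in TG against WT untreated (median -0.28) and for 11 of 12 after DSS (median -0.29). The medians over all tested genes were -0.02 and -0.01. Such genes can vary together, so the signs are not 12 separate observations. Of the 5 pan-leukocyte and 6 T cell markers tested, 0 were above zero for TG against WT untreated (medians -0.69 and -0.66). The part of leukocytes in these signs was not tested. The sensors that rose with DSS were Nlrp1a, an inflammasome sensor, with log2 fold changes of 1.45 in TG and 1.28 in WT, and Nlrp3, a sensor of ion efflux and membrane damage, which had few counts, with a highest value of 2.78 CPM. Nlrc4, which pairs with NAIP proteins, did not pass with DSS in either genotype (adjusted p 0.994 in TG and 0.360 in WT). Of 8 other caspases, Casp14, a caspase of epidermal differentiation, was lower in TG than in WT untreated tissue (log2 fold change -1.05, adjusted p 0.0489) and rose with DSS in TG (1.86, adjusted p 0.00357). The genotype call of Casp14 ended in at least 1 fit with 1 library left out. Casp8, the initiator of death-receptor apoptosis, rose with DSS in WT (0.70, adjusted p 0.0184), as did Casp2 (0.45, adjusted p 0.0173). The count of these caspases called was 0 in WT without WT DSS 1, WT DSS 2 or WT untreated 3 and 1 without WT untreated 1 or 2, and in TG 0 without TG DSS 2. It was higher in TG, at 3 and 2, with TG untreated 1 or WT untreated 2 left out.

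Of 12 interferon-inducible GTPases and regulators that act beside caspase-11 and AIM2, 3 rose with DSS in TG tissue and 11 in WT tissue, beside 3.33% of all tested genes called higher in TG and 10.2% in WT. The count in TG was 0 without TG DSS 1 and 1 without TG DSS 2, and that in WT was 9 to 12 with any 1 library left out. Their median log2 fold change was 0.57 in TG and 1.86 in WT, beside 0.01 and 0.00 over all tested genes, and 0 of the 12 passed the interaction test in edgeR. In WT the most firmly called were Irgm1 (1.57), Igtp (1.98), Irf8 (0.94) and Irgm2 (1.63), and in TG Gbp2 (3.01), Gbp5 (2.31) and Irf8 (0.70). Irgm1 was also higher in TG than in WT untreated tissue (0.84, adjusted p 0.0253). Of 10 partners in necroptosis and apoptosis, Zbp1, a nucleic acid sensor that engages RIPK3, was higher in TG than in WT untreated tissue (1.23, adjusted p 0.0239). These calls of Irgm1 and Zbp1 each ended in at least 1 fit with 1 library left out. With DSS 2 of the 10 rose in TG and 5 in WT, beside the same shares of all genes. The count in TG was 1 without TG DSS 1 or TG untreated 3, 0 without TG DSS 2 and 4 without TG untreated 1, and that in WT was 3 without WT DSS 2. Zbp1 rose in WT (2.44), as did Apaf1, the scaffold of the apoptosome (0.90). Ripk3, the kinase of necroptosis, rose in both (1.13 in TG and 1.5 in WT), as did its pore-forming substrate Mlkl (0.68 in TG and 1.34 in WT).

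Because the Gsdmc copies are known to answer to type 2 cytokines, that axis was examined too. Retnlb, a goblet cell product induced by the same cytokines, was at 1240, 1172 and 834 CPM in TG untreated and 201, 100.8 and 183 CPM in WT untreated libraries (log2 fold change 2.74, SE 0.25, adjusted p 0.000956). It was at 215 and 208 CPM in TG DSS libraries, a fall against the TG untreated ones (log2 fold change -2.36, adjusted p 0.00138). It was the 1 of 7 genes of the list called between the untreated genotypes, and the 1 called with DSS in TG. Of all tested genes, 3.7% were called in either direction between the untreated genotypes, 5.48% with DSS in TG and 19.8% with DSS in WT. With DSS in WT, 3 of the 7 were called, or 1 without WT DSS 2 or WT untreated 1. In TG the count was 3 without TG untreated 1, WT DSS 1 or WT DSS 2 and 2 without any 1 of the WT untreated libraries. Il4ra, the receptor chain shared by interleukin-4 and interleukin-13, was at 92.8 and 63.7 CPM in WT DSS and 42.9, 40.2 and 29.1 CPM in WT untreated libraries (log2 fold change 1.06, adjusted p 0.0048). Il33, an alarmin that promotes type 2 responses, rose by 1.67 (adjusted p 0.0173) at no more than 2.92 CPM, and Dclk1, a tuft cell marker, fell by 1.18 (adjusted p 0.0307). In TG tissue the 3 had log2 fold changes of 0.50, 0.98 and -1.24 that did not pass (adjusted p 0.165, 0.214 and 0.0554). Il4, Il13 and Il25 transcripts themselves were at or under 0.234 CPM in every library, too few counts to compare. Among the 3 other gasdermins that could be tested, Gsdmc was at 21.1, 19.5 and 23.7 CPM in TG untreated and 12.8, 11.2 and 10.1 CPM in WT untreated libraries (log2 fold change 0.91, adjusted p 0.0384). Its counts, too, were whole in 0% of libraries, and its call ended in at least 1 fit with 1 library left out.

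Across the 10 libraries, the genes whose log2 CPM followed each member most closely were named by Pearson's r, as a description with libraries that share groups. For the sum of the Gsdmc copies these were Tor3a (0.956), Gadd45g (0.951) and Gsdmc (0.940), the last of which shares sequence with the copies. For Gsdmd they were Rn4.5s, Tpm1 and Pde9a (0.981 to 0.987), and for Pycard they were Rps29, Atp6v1f and Coq5 (0.979 to 0.987). For Casp1 they were Ptpn2, Lgals8 and AU041133 (0.974 to 0.982), for Casp4 they were Trim56, Ccl28 and Zfand5 (0.941 to 0.974), for Nlrp6 they included Daglb and Acot8 (0.947 and 0.938), and for Aim2 they were Vmn1r58, Grk4 and Cyld (0.984 to 0.985).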

How the data were processed

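Each library came as 1 deposited table that lists, gene by gene, the expected count, the FPKM and the length in bases. The expected counts, so named per the file headers, are estimates that need not be whole. The deposited FPKM values were scaled by the authors to gene length and depth. Per the submitters' processing notes the tools were HISAT2 2.0.4, Bowtie2 2.2.5 and RSEM 1.2.12 and the build mm10, with no role given. The deposited lengths were used only to check FPKM against counts. A gene missing from a table was set to 0.

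Expected counts were rounded, filtered with filterByExpr (count minimum 10, total minimum 15) and scaled by TMM in edgeR 4.0.16 under R 4.3.3. The quasi-likelihood test used all 10 libraries together, each of the 4 groups having its own mean (14072 genes, 6 residual degrees of freedom), with Benjamini-Hochberg adjustment over all genes and a threshold of 0.05. The 3 copies were also replaced by their sum and the whole table refitted. DESeq2 1.42.0, other scalings and filters, limma 3.58.1 on log2 FPKM (pseudocount 1 or 0.1), a replicate block and the leaving out of each library were tried. The code was tested on simulated data. Same-group libraries differed beyond counting error, with a chi-square per gene of 9.99 to 65.1 over 8 pairs. Coding sequences come from GENCODE M21, aligned with mafft, and coordinates from RefSeq, both of GRCm38, the assembly that mm10 names.

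The members and lists were chosen with earlier results of these data known. All 9 members are named in every comparison. From each list, up to 4 called genes per comparison with a mean of at least 1 CPM are named by smallest adjusted p, besides 7 partners named throughout and the 3 genes most alike to each member; 2 genes that these rules name are not reported here. Shares of the copies were looked at after their values were seen.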

Additional observations from a re-analysis of the deposited data

Results flagged for a closer look

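Gsdmc4 had log2 fold changes of opposite sign with DSS in the 2 genotypes, -0.46 in TG, which did not pass (adjusted p 0.321 in edgeR), and 0.79 in WT (adjusted p 0.0389): both TG DSS libraries lay below all 3 TG untreated ones, and both WT DSS libraries lay above all 3 WT untreated ones. The test of the difference itself, the interaction, gave a log2 value of -1.26 with an adjusted p of 0.141 in edgeR and 0.0127 in DESeq2. Without WT DSS 1 it was -0.73 (adjusted p 0.14 in edgeR), and without WT DSS 2 it was -1.64 (adjusted p 0.0161). No group held enough libraries to test for 1 that stands apart.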

How the results depend on the processing

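With 2 or 3 libraries a group, some calls and some directions changed when 1 library was left out, also for the sum of the Gsdmc copies. With each library left out in turn, the number of members called ranged from 0 to 3 for TG against WT untreated, from 0 to 0 after DSS, from 2 to 4 for DSS in WT, from 1 to 4 for DSS in TG and from 0 to 3 for the interaction. The log2 fold change of the summed copies ranged in the same order from 1.2 to 1.34, from -0.34 to 0.64, from -0.0471 to 0.93, from -0.96 to -0.49 and from -1.64 to -0.66. DESeq2 called 4 members for DSS in TG and 2 for the interaction, where the sum was -1.24 (adjusted p 0.0256). The 3 limma fits on log2 FPKM called 2 members, Gsdmd and Pycard, for DSS in WT. Adding Gsdmc, Gsdmcl-ps and Gsdmcl2 to the sum, chosen after seeing the data, gave 1.29 (adjusted p 0.0182) for TG against WT untreated and changed no call.

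Whether the replicate numbers of the titles pair the libraries was not settled. Deviations of same-numbered libraries from their group means correlated at -0.29 to 0.21 over 13 pairs, and those of different-numbered libraries at -0.21 to 0.29. In groups of 2 the deviations mirror each other, so these pairs are not independent. With the number as a block, 1 member, Gsdmd, was called for DSS in TG, and the adjusted p was 0.106 for Pycard there and 0.0512 for Casp4 with DSS in WT. Over all genes the block gave 166, 7, 1614, 356 and 41 calls, against 520, 26, 2788, 771 and 119, and DESeq2 gave 1041, 258, 3212, 1244 and 430. Total count scaling called 235 higher and 381 lower for TG against WT untreated, 6 and 1 for TG against WT after DSS, 1147 and 1699 for DSS in WT, and 413 and 402 for DSS in TG, against 318 and 202, 25 and 1, 1434 and 1354, and 468 and 303 with TMM. Only the groups compared gave 8 and 395 calls for TG against WT after DSS and DSS in TG.

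Small fold changes that had not been called changed sign; the cause was not tested. Aim2 with DSS in WT was -0.00666 with total count scaling and -0.00735, -0.00769 and -0.00735 in the FPKM fits. Casp4 for TG against WT untreated was -0.0347, -0.0404 and -0.0347 in the FPKM fits. With 1 library left out, the ranges that crossed 0 were, for TG against WT untreated, -0.0913 to 0.33 for Casp4. For TG against WT after DSS they were -0.25 to 0.81 for Gsdmc2, -0.92 to 0.29 for Gsdmc3, -0.32 to 0.59 for Gsdmc4 and -0.52 to 0.046 for Casp1. For DSS in WT they were -0.44 to 0.62 for Gsdmc2, -0.52 to 0.68 for Gsdmc3, -0.16 to 0.40 for Casp1 and -0.0345 to 0.14 for Aim2. For DSS in TG they were -0.0627 to 0.41 for Casp1, -0.26 to 0.39 for Casp4 and -0.0796 to 0.32 for Aim2. For the interaction they were -0.21 to 0.35 for Casp1, -0.11 to 0.15 for Nlrp6 and -0.14 to 0.26 for Aim2.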
